A study of Mus musculus with 12 samples.

Results

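Levels of 5-methylcytosine (m5C) in polyadenylated RNA were compared between mouse heart and liver, cytosine by cytosine. The sites compared were all listed cytosines that had at least 20 reads in both tissues: 1433 of the 2498 in the table, in 1138 genes. Both tissues came from wild-type (WT) female C57BL/6 mice, with ages given as 8 to 10 weeks, and each was measured in 1 bisulfite-sequencing library. The other 4 tissues of the study were muscle, small intestine, lung and spleen. Each had 1 set of values for all its libraries, used only to describe the heart and liver sites. By title, muscle had 4 female libraries, whereas small intestine, lung and spleen each had 1 female and 1 male library. In comparisons with small intestine, lung or spleen, sex and tissue cannot be told apart. With 1 library each for heart and liver there was no spread between animals. Every interval and test below thus covers counting error only and compares 2 libraries rather than the tissues of several animals. The labels name no treatment for either tissue and do not say how many animals went into a library.

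Bisulfite converts unmodified cytosine, which is then read as T, while m5C stays C. The level at a site is thus the share of its reads that remained C. In mRNA, m5C is known to be set mainly by NSUN2, a methyltransferase that also modifies tRNA, and at a smaller class of sites by NSUN6. ALYREF, an export adaptor, and YBX1, a relative of the product of Ybx3, are known to bind it. Heart muscle is dense in mitochondria and burns fatty acids, whereas liver makes blood proteins and handles lipids, amino acids and drugs. In bulk tissue a level averages over every cell that makes the transcript, so a difference between cell types and a difference within 1 cell type cannot be told apart.

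Sequence was at hand for 34 of the 1433 sites, near starts of transcripts. These were read from RefSeq windows of GRCm38.p6, which cover 250 bases before and 50 bases after a RefSeq start, of which a gene can have several, and each of the 34 positions held a C on the transcribed strand. The sets below are shown because they hold, in turn, neighbouring cytosines with unlike calls, neighbours that went the same way, neighbours with like levels, the single site called higher in heart, a site with equal levels and one inside a ribosomal protein transcript. Capitals mark the listed cytosines.
Ppm1m, chr9:106199099-106199125, minus strand: gccgcgctccagCCCggtgccctatca
Dcun1d3, chr7:119895679-119895708, minus strand: gaggaggaggCggCggCCgCggtggcagaa
Rps19, chr7:24884713-24884740, plus strand: cgggctttctggCCCCaagagctcgtgc
Agtpbp1, chr13:59557132-59557156, minus strand: cgccgtgcgcccCgggagtcccggg
Ptpn4, chr1:119837147-119837171, minus strand: ctcatctcgccgCgaggtgcgagcg
Rpl13a, chr7:45128711-45128735, minus strand: tttcccaggcggCtgccgaagatgg

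In Ppm1m, a protein phosphatase gene, the first capital C (position 106199113) had 18.8% of 272 reads in heart and 30.5% of 380 in liver. The middle one, at 106199112, had 12.4% and 12.04%. The last, at 106199111, had 34.3% of 277 reads and 51.0% of 384. Of 3 adjacent cytosines, the outer pair was thus called higher in liver (Fisher's exact adjusted p = 0.00224 and 9.1e-05) and the middle one was not called. In Dcun1d3, whose product takes part in neddylation, all 5 capitals had a higher value in liver, and 2 of them were called: position 119895698 with 6 unconverted of 40 reads against 41.7% of 36, and position 119895689 with 0 of 56 reads, which allows up to 5.36%, against 11.3% of 71. Neither call held when both tissues were thinned to the same number of reads in a single random draw. Whether a call lost here or at the sites below would hold in another draw was not tested. The 4 adjacent cytosines of Rps19, a small-subunit ribosomal protein gene, ran from 10.1% to 10.6% in heart and from 5.52% to 7.18% in liver, and none was called.

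Agtpbp1, a tubulin deglutamylase gene, had 10.8% of 800 reads in heart and 0 of 44 in liver, which allows up to 6.82%; it was called, but not after thinning. In Ptpn4, a tyrosine phosphatase gene, 57.6% of 264 heart reads and 57.9% of 95 liver reads were unconverted. Rpl13a, a large-subunit ribosomal protein gene, had 18.4% of 98 reads in heart and 29.5% of 105 in liver, which was not called. Its listed cytosine is base 23 of the RefSeq transcript, whereas the listed cytosines of the other 5 genes lie up to 240 nt upstream of the start that defines their window. All lie inside the RefSeq span of their gene, 22 to 641 nt from its outermost 5′ end, which is the end used for position along the gene below. Only in Agtpbp1 of these 6 genes is the listed C followed directly by GGG. The letters GGG, searched on the transcribed strand with the first G 1 to 5 bases after the site, followed 7 of the 34 sites (20.6%), against 9.53% of all cytosines in the same RefSeq windows. The letters TCCA directly after the site were found at 0 of the 34, against 0.668% of all window cytosines. With so few sites these shares are a description of the windows alone.

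Over all 1433 sites the heart library had the higher level more often. The median level was 10.7% in heart and 5.77% in liver, and the median heart-minus-liver difference was 3.95 percentage points, with quartiles at -0.264 and 9.24. Heart was above liver at 1034 sites, below it at 378 and equal at 21. Each site was tested with Fisher's exact test (two-sided), adjusted by the Benjamini-Hochberg method over the 1433 sites, and 319 sites (22.3%) passed both an adjusted p of 0.05 and a difference of at least 10 points. Of these, 281 (19.6% of all) were higher in heart and 38 (2.65%) higher in liver, so that 88.1% of the called sites were higher in heart. When the median was first taken away from every difference, 160 sites were higher in heart and 64 in liver, a share of 71.4%. This moved the 10-point minimum only: the adjusted p-values stayed those of the uncentred levels. With a minimum of 100 reads in both tissues the number higher in liver fell to 15, and 217 were higher in heart. Levels of 50% or more were reached at 40 sites in heart, at 24 in liver and at 15 in both.

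**Figure D1:**
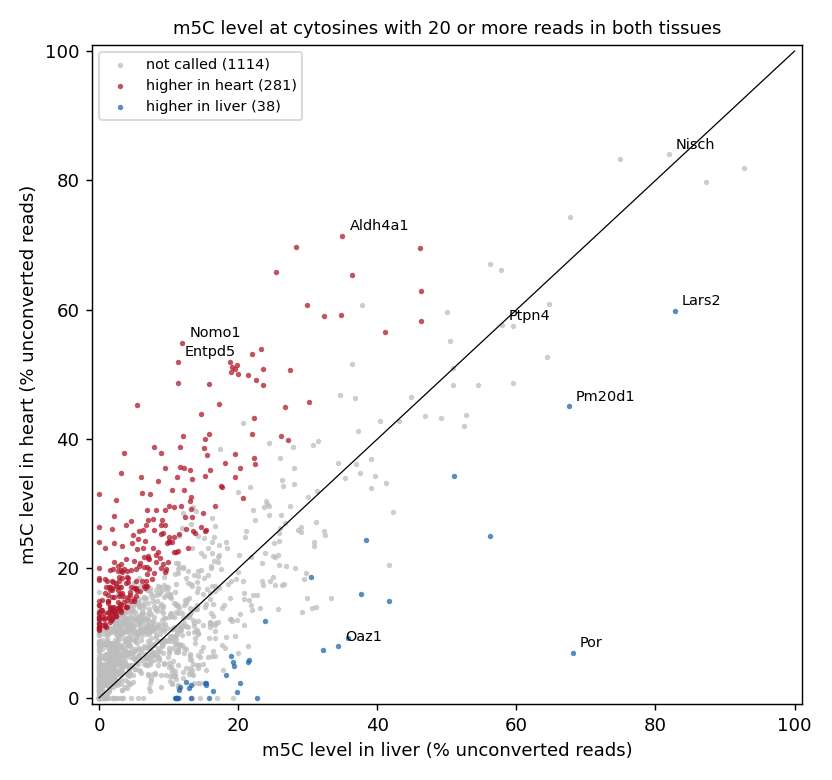
m5C level (percent unconverted reads) of each of the 1433 sites, liver on the horizontal and heart on the vertical axis. Each point is 1 cytosine, red for the 281 called higher in heart, blue for the 38 called higher in liver and grey for the 1114 not called, and the line marks equal levels.

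The site with the largest difference in favour of heart lay in Nomo1, which encodes part of a membrane protein complex at the translocon of the endoplasmic reticulum (ER). At chromosome 7, position 46068765, 54.9% of 3236 heart reads were unconverted (95% Wilson interval 53.2 to 56.6) against 11.98% of 1511 liver reads (10.4 to 13.7). The difference was 42.9 points, with a Newcombe interval of 40.5 to 45.2 (Fisher's exact adjusted p = 3.1e-189). Entpd5, an ER nucleoside diphosphatase gene, had 52.0% of 600 reads in heart and 11.3% of 4354 in liver at chromosome 12, position 84392535. Its other listed site, at 84376175, had 17.5% in heart and 25.3% in liver and was not called. Kif13a, a kinesin motor gene, had 48.6% of 432 reads and 11.3% of 53, a call that did not hold after thinning, and 2310022B05Rik 45.3% of 322 and 5.45% of 220.

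Several of the next largest differences lay in genes of mitochondrial proteins. Aldh4a1, an enzyme of proline breakdown, was at 71.4% in heart (69.9 to 72.9, 3477 reads) and 34.98% in liver (34.1 to 35.9, 11313 reads). Slc25a4, which exchanges ADP for ATP across the inner mitochondrial membrane, had the deepest heart coverage of any site, 243137 reads with 48.6% unconverted, against 15.8% of 379 liver reads. Got2, the mitochondrial aspartate aminotransferase, had 51.2% and 19.2%. Tmem126a, whose product helps assemble respiratory complex I, had 34.8% and 3.07% at 90457138, and at 90450822, not called, 14.3% of 91 and 12.2% of 41. Mfn2, which fuses mitochondrial outer membranes, had 50.4% and 18.97% at 147880008 on chromosome 4, and at a further site, 147887416, 15.8% and 2.83%. Among the 12 largest differences were also B230118H07Rik with 51.9% and 18.9%, Prkrir with 51.5% and 19.9%, and Rpl34-ps1 with 50.8% and 19.5%. The last is named as a copy of the ribosomal protein gene Rpl34, so its reads may be shared with that gene.

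The muscle levels of these 12 sites ran from 23.2% (2310022B05Rik) to 71.3% (Prkrir), and their small intestine levels from 0.846% (Tmem126a) to 17.8% (Rpl34-ps1). The second sites of Entpd5, Mfn2 and Tmem126a were named after their values were seen.

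Among the sites higher in liver, the most negative differences lay in genes of varied roles. Oaz1 encodes antizyme, which limits polyamine synthesis. At chromosome 10, position 80829104, it had 8.00% of 1188 reads in heart (6.59 to 9.68) and 34.4% of 1275 in liver (31.8 to 37.0), a difference of -26.4 points (-29.4 to -23.3; Fisher's exact adjusted p = 3.9e-59). Lars2, the mitochondrial leucyl-tRNA synthetase, was high in both, with 59.8% of 789 heart reads and 82.7% of 1593 liver reads. The deposited table marks the Lars2 site as m5C in liver and not in heart. Pm20d1, a secreted enzyme that makes N-acyl amino acids, had 45.1% and 67.5%. Slc35a3, a nucleotide sugar transporter of the Golgi, had 0.855% of 234 reads in heart and 19.8% of 925 in liver. Rnf149, a ubiquitin ligase gene, had 2.30% and 20.2%. Cmah, which turns one sialic acid into another, had 0 of 52 heart reads, allowing up to 5.77%, and 15.8% of 2336 liver reads.

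The remaining members of the 12 most negative differences were Myo6, an unconventional myosin, with 13 unconverted of 52 reads in heart and 56.2% of 121 in liver, and the ubiquitin ligase gene Trim2 with 9.18% and 35.7%. Josd2, a deubiquitinase gene, had 7.37% and 32.1%, which did not hold after thinning, Lrrc45 16.1% and 37.7%, and Eml3, a microtubule-associated protein gene, 5.45% of 55 and 21.5% of 149. The Ppm1m site at 106199111, shown above, completed the 12. The most negative difference of all rested on few reads and was named after its value was seen. Por, the electron donor of liver cytochrome P450 enzymes, had 3 unconverted of 43 reads in heart (6.98%, 2.40 to 18.6) and 32 of 47 in liver (68.1%, 53.8 to 79.6).

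**Figure D2:**
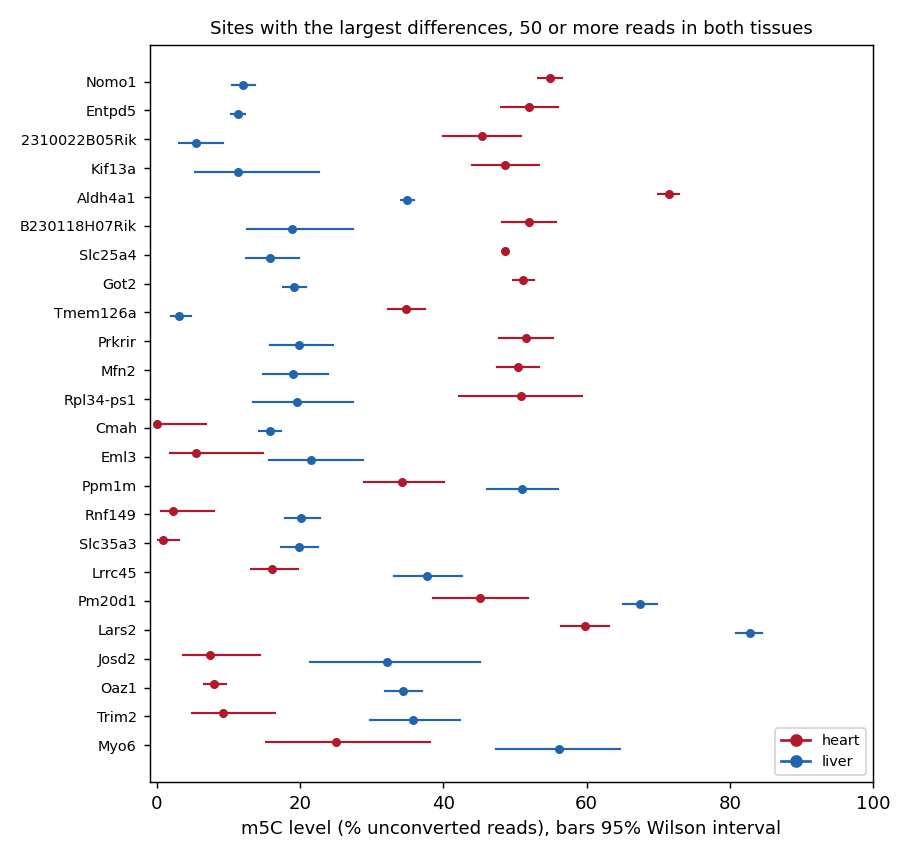
m5C level (percent unconverted reads) in heart (red) and liver (blue) at the 12 highest and 12 most negative differences among called sites with at least 50 reads in both tissues; bars are 95% Wilson intervals, which cover counting error only. The upper 12 run from Nomo1 (54.9% and 11.98%) to Rpl34-ps1 (50.8% and 19.5%), and the lower 12 include Oaz1 (8.00% and 34.4%) and Cmah (0 of 52 heart reads and 15.8%).

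At some called sites 1 tissue had no unconverted read. Of the 281 sites higher in heart, 22 had 0 unconverted reads in liver, and of the 38 higher in liver, 8 had 0 in heart. Named after their values were seen, Rpp14, a subunit gene of ribonuclease P, had 26.4% of 144 reads in heart and 0 of 133 in liver, which allows up to 2.26%, at 8090374, and 28.97% against 8.21% at the adjacent 8090375. Rnf144b, a ubiquitin ligase gene, had 18.3% of 93 and 0 of 104 (up to 2.88%), and Snx13, a sorting nexin gene, 13.3% of 294 and 0 of 153 (up to 1.96%). In the other direction, Coro2b, which encodes a coronin that binds actin, had 0 of 239 reads in heart (up to 1.26%) and 22.7% of 22 in liver. Smarcd1, a subunit of the SWI/SNF chromatin remodeller, had 0 of 252 (up to 1.19%) and 11.1% of 36; neither of these calls held after thinning. Eif2s3y, on the Y chromosome, had 10.9% of 64 heart reads and 0 of 65 liver reads although both libraries are labelled female; it has a near-identical X-linked copy, so its value is uncertain.

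The lists of mitochondrial metabolism had larger shares of sites higher in heart than all sites together. For a list of genes, the number called is given beside the share over all sites, 19.6% higher in heart and 2.65% higher in liver, and the median difference beside 3.95 points. Of 17 sites in 15 genes of oxidative phosphorylation, 6 were higher in heart and none in liver, with a median difference of 8.82 points. Sdhb, the iron-sulfur subunit of succinate dehydrogenase, had 17.97% of 37838 reads in heart and 4.12% of 11556 in liver. The site of Atp5b, the catalytic beta subunit of ATP synthase, at 128089039 had 12.7% of 109211 reads and 2.42% of 28926, and its site at 128088317 had 7.91% of 139 and 7.14% of 42. Both sites of Cox7c, a subunit of cytochrome c oxidase, fell short of 10 points: 20.3% and 11.5% at 86046657, and 11.8% and 6.31% at 86046658. Other called members were Slc25a4 and, named after their values were seen, Ndufa10 of complex I (40.002% and 15.3%) and Sdhd of succinate dehydrogenase (20.04% and 8.95%). Cox5a, of complex IV, had 13.8% of 188 reads in heart against 30.6% of 36 and was not called (exact adjusted p = 0.054).

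Of 9 sites in 8 genes of the TCA cycle and pyruvate handling, 4 were higher in heart and none in liver, with a median of 9.60 points. Idh3b, a subunit of isocitrate dehydrogenase, had 25.9% and 7.92% at 130280957, which was called, and 11.7% and 2.30% at 130283941, which stayed under 10 points. Mdh1, the cytosolic malate dehydrogenase, had 8.85% and 2.77%. Of 4 fatty acid oxidation sites 1 was called, Hadha, the alpha subunit of the trifunctional protein, with 17.8% and 2.46%. Decr1, a dienoyl-CoA reductase, had 13.3% and 5.14%, and Acadsb, an acyl-CoA dehydrogenase, 11.8% and 3.92%.

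The remaining mitochondrial enzymes and transport proteins had 27 sites in 21 genes, of which 17 were higher in heart and 2 in liver, with a median of 12.9 points. With only the sites that the authors had called in a tissue other than this pair, the counts were 10 and 1. Lonp1, a matrix protease, had 18.5% of 2856 reads in heart and 4.16% of 3534 in liver. Slc25a11, the oxoglutarate carrier, had 17.8% and 3.90%. Bckdha, a subunit of the dehydrogenase that breaks down branched-chain amino acids, had 10.6% of 13263 and 1.28% of 14747 and stayed under 10 points. Afg3l1, a protease subunit of the inner membrane, had 5 sites, all higher in heart, from 15.7% against 3.42% to 60.8% against 29.9%. The liver-higher pair were the Lars2 site and 1 of 2 sites in Mrps10, a mitochondrial ribosomal protein. Mrps10 was the only gene with called sites in both directions: 22.8% of 971 reads in heart and 11.3% of 1424 in liver at 47378349, and 2.04% of 49 and 15.4% of 65 at 47369353, the latter not called after thinning.

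Of 15 sites in 8 genes of RNA encoded by the mitochondrial genome itself, 2 were higher in heart and none in liver, with a median of 0.457 points. The site in mt-Cytb, cytochrome b, at position 14920 had 58.3% of 88099 reads in heart and 46.3% of 14665 in liver. The other called site, in mt-Atp6, named after its values were seen, had 24.2% and 10.1%. Position 911 of mt-Rnr1, the 12S ribosomal RNA in which NSUN4 is known to methylate a cytosine in mouse, had 74.3% of 68497 reads and 67.7% of 24784. Position 909 of the same RNA had 3.38% and 2.23%. The mt-Nd5 site had 48.3% and 50.9%.

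Of 29 listed sites in contractile genes, only 7, in 4 genes, had the reads to be tested. Of these 7, 3 were higher in heart and none in liver, with a median of 6.45 points. Dmpk, a kinase of striated muscle, had 3 sites: 34.2% of 14833 reads against 5.96% of 319 at 19092214, 13.5% against 1.69% at 19088261, and 4.81% against 0.860% at 19088219, the last not called. Tpm3, a tropomyosin gene, had 1.11% and 1.31% at one site and 2.33% and 0.478% at the other. In the list of insulin, mTOR and AMPK signalling, 13 of 13 sites in 10 genes had the higher value in heart, 6 were called, and the median was 7.87 points. Over all sites tested, heart had the higher value at 1034 of 1433. Akt2, the Akt kinase of insulin action, had 37.8% of 2494 reads in heart and 8.87% of 1489 in liver at 27638413, 13.9% and 1.53% at 27638133, and 8.20% and 0.415% at 27591870. Foxo3, a transcription factor that Akt phosphorylates, had 37.1% and 22.2%. Akt1s1, an mTORC1 inhibitor also called PRAS40, had 19.2% and 6.85%.

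Calcium, adrenergic and ion handling genes were divided. Of 75 listed sites, 17 in 11 genes could be tested. Of these 17, 3 were higher in heart and 1 in liver, with a median of 0.644 points. Atp2a2, the sarcoplasmic reticulum calcium pump, had 26.7% of 64394 reads in heart and 3.85% of 936 in liver. Both sites of Pde4dip, which encodes the anchoring protein myomegalin, were higher in heart, with 23.97% against 2.19% and 11.4% against 0.890%. By contrast Adra1b, the alpha-1B adrenergic receptor gene, had 36.1% of 1774 reads in heart and 36.9% of 1837 in liver at 43775970, a difference whose interval ran from -3.91 to 2.37 points; its other site, at 43775668, had 13.2% and 9.14% and was not called. The 3 neighbouring sites of Cacna1a, a neuronal calcium channel gene, had the higher value in liver, and 1 was called (2.22% of 90 against 15.4% of 52), though not after thinning. Of 4 glycolysis and glycogen sites, 2 were higher in heart: Gaa, the lysosomal glucosidase that degrades glycogen, with 29.6% and 11.8%, and Pfkm, the muscle phosphofructokinase, with 16.6% of 3308 and 2.67% of 75, which was not called after thinning. Hk1, a hexokinase gene, had 2.13% of 4184 and 0 of 96, which allows up to 3.13%, and Gpd1l 1.91% and 1.39%.

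Of 38 sites in 32 genes of ribosomal proteins and translation factors, 8 were higher in heart and none in liver, a share of 21.1% that lay near the 19.6% of all sites, and the median was 6.28 points. Rpl23 had 34.1% of 29669 reads in heart and 19.6% of 24064 in liver at 97781822, and 4.35% of 23 and 17.9% of 28 at 97782076, which was not called. Rps14 (10.2% and 3.19%), Rps21 (11.8% and 3.14%) and the site of Rplp0, the stalk protein, at 115560933 (11.4% and 3.05%) were each read at least 17757 times in both tissues, and none reached 10 points, while the other Rplp0 site, at 115560981, was called with 14.8% and 3.54%. The ubiquitin and proteasome list had 58 sites in 46 genes, 13 higher in heart and 3 in liver. Ube2r2, a ubiquitin-conjugating enzyme gene, had 40.9% of 2908 and 21.997% of 2373. The proteasome subunit genes Psmb7 (12.3% and 3.98%) and Psmd7 (14.8% and 5.61%) had the higher value in heart but stayed under 10 points. Their differences were 8.32 points (7.22 to 9.40) and 9.16 points (7.38 to 10.9). RNA-binding, splicing and decay genes had 33 sites, 7 higher in heart and 1 in liver. All 3 sites of Ybx3, a cold-shock domain protein gene, were higher in heart: 48.4% of 10092 against 23.6% of 1304, 13.5% against 0.315%, and 12.1% against 1.72%. The single liver-higher site, in the decay helicase gene Upf1, was named after its value was seen and had 3.45% of 87 reads against 18.2% of 33; the call did not hold after thinning.

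Chromatin and transcription regulators had 67 sites in 46 genes, 8 higher in heart and 2 in liver. Aes, a corepressor gene, had 49.9% of 18387 reads in heart and 21.4% of 14233 in liver at 81565604, yet 2.16% and 0.965% at 81566090. Nfix had 10.5% and 4.66%. Among the 55 sites of signalling kinases and phosphatases 5 were higher in heart and 2 in liver, both of the latter in Ppm1m, and among 40 sites of small GTPases and their regulators 3 and 0. The lysosome and autophagy list had 19 sites and none was called. By Fisher's exact test 5 of the 19 had an adjusted p under 0.05, each with the higher value in heart and a difference under 10 points. Over all sites the same held for a larger share: 647 of 1433 had an adjusted p under 0.05, 577 of them higher in heart. Atp6v0a1, a proton pump subunit, had 39.7% and 31.5% (exact adjusted p = 2.2e-06), and Tpp1, a peptidase, 21.2% and 16.5%.

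Lists of secretion, transport and liver function were mixed. ER translocon, folding and secretory pathway genes had 18 sites, 3 higher in heart and 2 in liver, with a median of 4.03 points. Sec61a1, the pore subunit of the translocon, was higher in liver with 38.3% of 2839 reads against 24.4% of 783, while Nomo1 and Surf4, a cargo receptor gene, were higher in heart; Surf4 had 32.6% and 17.7%. The other liver-higher member, Sec11c of the signal peptidase, had 4.94% of 81 reads and 19.4% of 62, and was named after its values were seen. Solute carriers had 23 sites, 8 higher in heart and 3 in liver. Besides Slc35a3, those higher in liver were Slco2b1, an organic anion uptake transporter (1.59% of 627 and 11.6% of 4051), and a site of Slc16a11, a monocarboxylate transporter, with 0 of 43, which allows up to 6.98%, and 11.1% of 244. The Slc16a11 site was named after its values were seen and its call did not hold after thinning.

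Of 5 tested sites in genes of liver metabolism, out of 20 listed, 2 were higher in liver, Por and Slco2b1, and 2 in heart. Ephx2, the soluble epoxide hydrolase, had 35.5% of 3621 reads in heart and 12.2% of 12507 in liver. Aldh1a1, a retinaldehyde dehydrogenase, had 13.3% of 30 and 2.09% of 719, a call that did not hold after thinning. Ptdss1, which makes phosphatidylserine, had 42.7% and 40.3%. Hepatocyte secreted proteins had 2 testable sites out of 13 listed and neither was called. Of these, Igfbp4, a binding protein of insulin-like growth factors, had the deepest liver coverage, 42089 reads with 13.01% unconverted, and 6.44% of 3244 heart reads. Of the 5 sites of circadian and polyamine genes, 2 were higher in heart and 1, that of Oaz1, in liver.

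Extracellular matrix genes and blood cell genes had medians just below 0. Of 24 matrix and adhesion sites in 21 genes, 2 were higher in heart and none in liver, with a median of -0.768 points. Itgb5, an integrin, had 6.95% of 1927 and 1.67% of 1255, and both sites of the desmosome gene Dsp lay between 4.23% and 5.77% in the pair of tissues. Named after their values were seen, the called sites were Lamb2, a laminin chain, with 21.5% of 4914 and 3.85% of 78, and Col15a1, a collagen, with 18.3% of 1020 and 0.794% of 126. Of 11 immune and blood cell sites, 1 was higher in heart, Il6st, the gp130 receptor subunit, with 38.8% of 518 and 11.6% of 519, which was also named after its values were seen; the median was -0.599 points. Csf1r, the macrophage growth factor receptor, had 36.3% of 1500 and 34.4% of 1504. Rela, a subunit of NF-kB, had 33.2% and 41.3%, Bpgm of red cells 14.4% and 11.03%, and Fech, the last enzyme of haem synthesis, 7.42% and 1.35%. The endothelial genes Vwf (19.3% of 1159 and 11.3% of 97) and Tie1 (6.26% of 1646 and 15.7% of 236) were not called. For Vwf the interval of the difference ran from -0.143 to 13.4 points. The Tie1 difference of -9.42 points (-14.7 to -5.14) left out 0 but fell short of 10 points.

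The genes of the m5C machinery had 2 sites and neither was called. Nsun5, an rRNA methyltransferase, had 14.04% of 171 reads in heart and 15.2% of 151 in liver, and the DNA methyltransferase gene Dnmt3a 11.1% of 217 and 12.5% of 64. No site in Nsun2 or Nsun6 was among those tested.

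**Figure D3:**
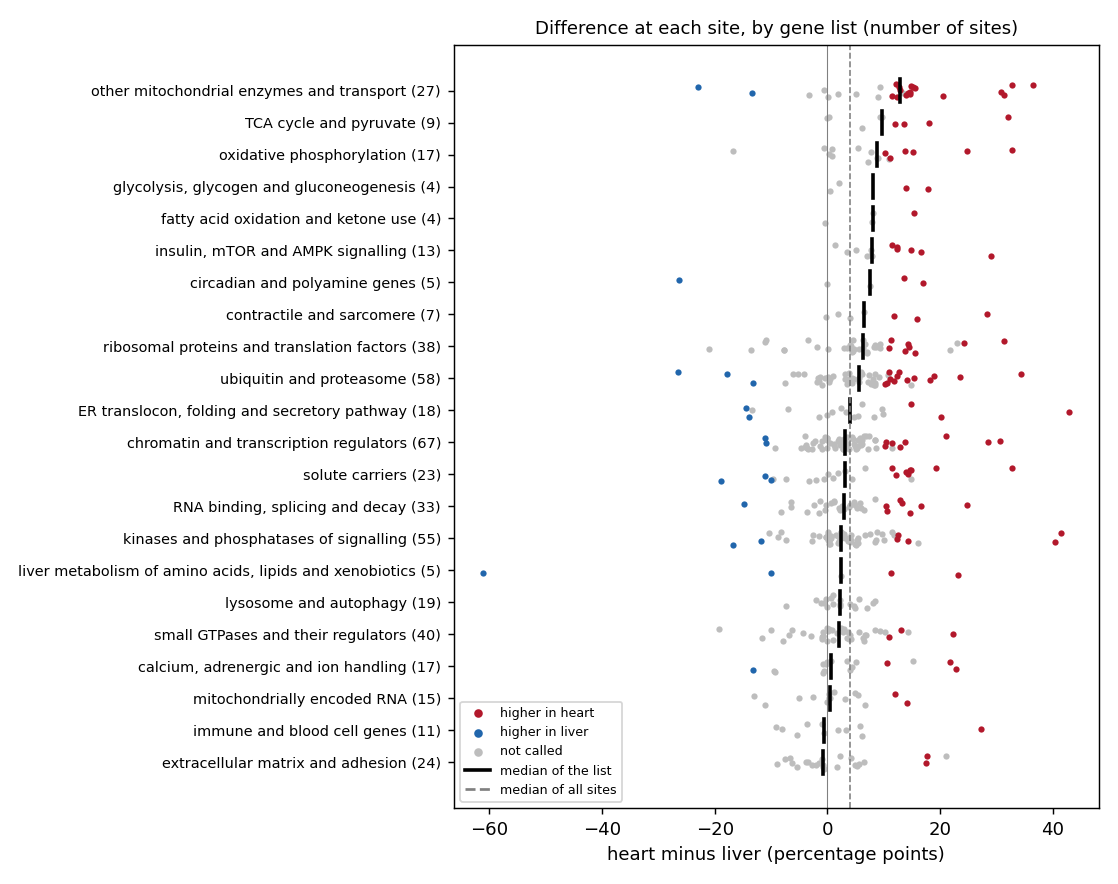
Heart-minus-liver difference (percentage points, horizontal axis) of each site in the gene lists with at least 4 tested sites, with the number of sites in brackets; red points were called higher in heart, blue points higher in liver, and grey points not called. Black bars are list medians and the dashed line is the median of all sites, 3.95 points; the top 3 are lists of mitochondrial proteins, with medians of 8.82 to 12.9 points, and the matrix and blood cell lists lie at the bottom.

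Sites differed within genes as well as between them. There were 202 genes with at least 2 tested sites. In 81 of them at least 1 site was called, and in 32 at least 2 were. In 31 of the 32 all called sites went in 1 direction, and Mrps10 was the exception. Of 59 genes with 3 or more sites, 37 had none called, 3 had all sites higher in heart and 1 had all sites higher in liver. Besides Afg3l1 and Ybx3, the former 3 included Vdac1, the outer membrane channel for ATP and metabolites, with 53.1% against 21.96% at 52389182, 21.05% against 2.14% at 52389078 and 14.4% against 3.18% at 52388480. The latter was Eml3, whose 3 sites lie within 8 nt of each other and so share reads, with 5.45% to 5.88% in heart and 19.2% to 21.6% in liver. Of the 3, the site at 8929927 alone was also called after thinning.

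In the median, closely spaced sites showed no shift towards heart. The 170 sites with another listed site within 10 nt, in 67 genes, had a median difference of 0, with median levels of 9.57% in heart and 10.1% in liver; 19 (11.2%) were higher in heart and 12 (7.06%) in liver. The 1263 isolated sites had medians of 10.8% and 5.19%, a median difference of 4.50 points, and 262 (20.7%) and 26 (2.06%) called. Neighbouring sites are read by the same molecules, so they are not separate measurements. Several groups of neighbours had nearly equal levels in the pair of tissues. Ppp6r1, a phosphatase subunit gene, had 3 adjacent cytosines at 7.71% to 8.78% in heart and 7.15% to 8.34% in liver, on at least 3462 reads each. The 4 sites of Btbd2 had 8.84% to 11.3% and 9.74% to 12.01%, and the 4 of Cdc42bpb, a kinase gene, 6.10% to 6.69% and 6.83% to 7.70%. In muscle the Btbd2 sites had 0 unconverted of 36 to 40 reads, which allows 7.50% to 8.33%, whereas in small intestine they had 10.4% to 13.4%. Esd, the S-formylglutathione hydrolase gene, went the other way: its 5 sites within 10 nt had 0% to 2.38% in heart and 11.4% to 14.5% in liver, with 3 called higher in liver, 1 of them not after thinning.

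Position along the gene was described for protein-coding genes of at least 10 kb, by distance to the RefSeq gene ends, since exon structure was not used here. The 185 sites within 1 kb of the 5′ end had a median difference of 0.446 points, with 18 (9.73%) higher in heart and 13 (7.03%) in liver. The 182 sites within 1 kb of the 3′ end had 4.50 points, 41 (22.5%) and 6 (3.30%), and the 703 sites elsewhere 4.02 points, 146 (20.8%) and 11 (1.56%). Of the sites near the 5′ end 129 were isolated, of those near the 3′ end 161 and of those elsewhere 656. The isolated sites near the 5′ end had a median of 2.86 points, with 16 higher in heart and 5 in liver, and those near the 3′ end had 5.01 points. With at least 100 reads in both tissues, the numbers higher in liver were 4 near the 5′ end, 5 elsewhere and 2 near the 3′ end. Over all sites of that depth it was 15 of 903 (1.66%). Shares per place at that depth were not computed, so these counts cannot be compared between places. Por lies near its 5′ end, Aldh4a1 and Got2 lie near their 3′ ends, and Nomo1 and Entpd5 lie elsewhere.

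**Figure D4:**
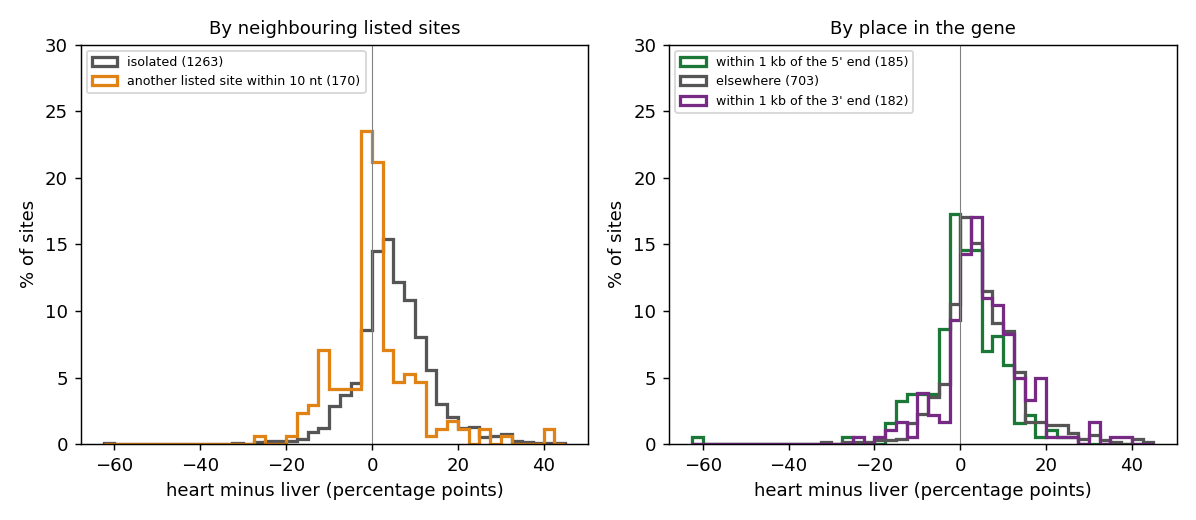
Distribution of heart-minus-liver differences (percentage points, bins of fixed width) as percent of sites in each class. At left, the 170 sites with a listed neighbour within 10 nt peak around 0 while the 1263 isolated sites are shifted towards heart; at right, the 185 sites near 5′ ends have a lower median (0.446) than the 182 near 3′ ends (4.50) and the 703 elsewhere (4.02).

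Not every highly modified site was called. The 5 highest mean levels of the pair of tissues belonged to Rpl3 with 82.0% of 61 reads in heart and 92.8% of 83 in liver, Znrf1, a ubiquitin ligase gene, with 79.7% and 87.2%, and Nisch, which encodes the imidazoline receptor candidate nischarin, with 84.1% of 207 and 81.9% of 138. Pabpc4, a poly(A)-binding protein gene, had 83.3% of 2813 and 74.9% of 414, and Lars2 was the only one of the 5 called. Further sites were chosen after their values were seen, for an interval of the difference within 8 points and both levels at 20% or more. Among others these were Wac (57.5% of 638 and 59.5% of 696), Ccdc107 (60.8% of 835 and 64.7% of 2223), Nus1, a dolichol synthesis gene (41.2% and 37.2%) and Snrnp70, a U1 snRNP protein gene (22.5% of 1893 and 23.9% of 832). The intervals of Nus1 (0.262 to 7.68 points) and Ccdc107 (-7.73 to -0.0241) left out 0, and that of Snrnp70 (-4.99 to 1.92) did not. Over the 1114 sites not called, the interval of the difference lay within 10 points either way at 567 and reached 10 points at 547, so for the latter a difference of that size lay within the counting error. At 328 of the 1114 the adjusted p was under 0.05 with a difference under 10 points. Without a minimum difference, 577 sites (40.3%) were higher in heart and 70 (4.88%) in liver.

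The levels in the other 4 tissues, which had no part in the calls, were set beside the pair where they had at least 20 reads. At the sites higher in heart the median level was 20.96% in heart and 5.48% in liver. It was 20.3% over the 276 sites read in muscle and 3.64% over the 257 read in small intestine. In lung it was 2.94% over 207 sites, and in spleen 2.08% over 193. The muscle level was nearer to that of heart at 195 of 276 sites, whereas the small intestine level was nearer to that of liver at 244 of 257. At sites not called, muscle was also nearer to heart at 672 of 1036, and small intestine nearer to liver at 629 of 994. The nearness of muscle to heart was thus not particular to the sites higher in heart. At the sites higher in liver the medians were 2.91% in heart and 19.3% in liver, while muscle had 4.67% and small intestine 8.92%, over 34 and 36 sites. Lung had 4.47% and spleen 4.90%, over 19 and 16. Muscle was nearer to heart at 27 of 34 and small intestine was nearer to heart at 30 of 36. Oaz1, with 27.8% in small intestine and 6.58% in muscle, and Lars2, with 92.0% and 78.5%, were named sites where another tissue came near to liver or exceeded it. Cmah had 15.8% in liver, 0 of 80 reads in muscle, which allows up to 3.75%, and 0 of 77 in small intestine, which allows up to 3.90%.

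Muscle and small intestine also differed from each other at the same sites. Muscle was above small intestine at 236 of 256 sites higher in heart and at 716 of 939 sites not called. At sites higher in liver it was above at 11 of 32 and below at 19. Grouped by muscle level alone, the 289 sites under 5% in muscle had a median heart-minus-liver difference of 0.810 points and 8.65% of them were higher in heart. The 745 sites from 5% to 20% had 4.55 points and 14.6%, and the 275 from 20% to 50% had 10.2 points and 45.5%. The 37 at 50% or more had 12.02 points and 45.9%. Levels in heart and liver rose along the same groups. From the lowest group up, heart medians were 4.06%, 10.26%, 23.95% and 51.58%, and liver medians 2.56%, 4.42%, 12.38% and 36.36%. A call needs 10 points, which sites with low levels in both tissues can hardly reach. Whether the difference rose by more than these levels did was not tested. Adra1b, whose site with a high level in heart was not called, had 0 of 21 reads unconverted there in muscle, which allows up to 14.3%.

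**Figure D5:**
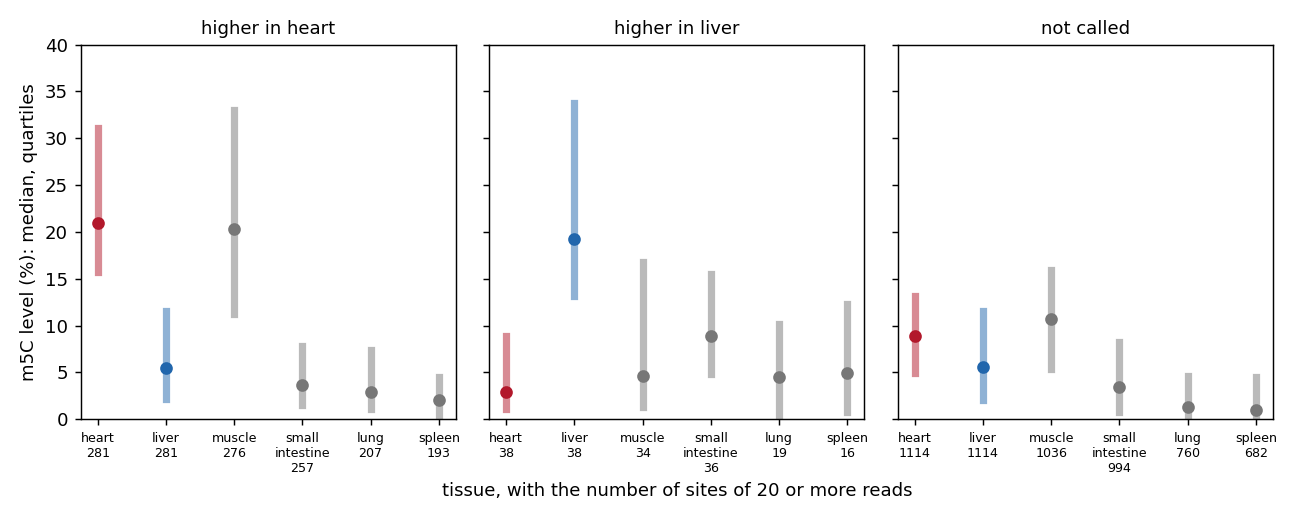
Median m5C level (percent, points) with quartiles (bars) in 6 tissues at the sites called higher in heart, higher in liver and not called; the number under each tissue is the sites with at least 20 reads there. At sites higher in heart the muscle median (20.3%) lies beside that of heart (20.96%) and the other tissues lie at or below that of liver (5.48%); at sites higher in liver every other tissue lies below liver (19.3%).

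The table lists sites that the authors called in some tissue, which can favour a tissue with many calls. Of the 856 tested sites that the authors called in a tissue other than heart and liver, 205 (23.9%) were higher in heart and 20 (2.34%) in liver, with a median of 4.76 points. Muscle is among those tissues, and its level was nearer to that of heart at 195 of 276 sites higher in heart and at 672 of 1036 not called. Calls in muscle can thus favour heart too, so the part of the listing was not tested by this set. Of the 577 that they called in no other tissue, 76 were higher in heart and 18 in liver, with a median of 2.30 points. By the authors' calls within the pair, 467 sites were m5C in heart only, of which 198 were higher in heart, and 139 in liver only, of which 30 were higher in liver. Among the 273 called in both by the authors, 74 were higher in heart and 7 in liver. The authors left uncalled 56 heart and 66 liver sites at a level of 10% or more; mt-Cytb 14920 in heart was one of them.

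Depth was higher in heart and moved with the calls. Median coverage was 305 reads in heart and 220 in liver, from 21 to 243137 in heart and from 21 to 42089 in liver. The median ratio of heart to liver reads was 1.65 at sites higher in heart, 0.676 at sites higher in liver and 1.23 at sites not called. Across the 1433 sites, which share the same pair of libraries, Spearman's rho of the log2 coverage ratio with the difference was 0.187 and that of heart with liver levels 0.539. With reads thinned to the smaller coverage at each site, 257 sites were higher in heart and 29 in liver. The 32 sites just outside the read minimum, with a smaller coverage of 15 to 19, had median levels of 11.6% in heart and 9.32% in liver, and the 28 just inside, at 20 to 24, had 13.1% and 7.97%. The marker genes could be read only as coverage at listed sites. The hepatocyte marker Alb had 1177520 liver reads and a blank heart cell. None of the 10 cardiomyocyte markers has a listed site, and Des, a filament gene of all muscle, had 30831 reads in heart and 93 in liver at 1 site. Vwf of endothelium (1159 and 97 reads) and Col1a1 of fibroblasts (1672 and 171) were read more in heart, Csf1r of macrophages alike (1500 and 1504), and the erythroid genes Bpgm (4522 and 1233) and Fech (2372 and 2739) in both. Of the skeletal muscle markers, Myh4 had 48 liver reads and Myh1 24, with blank heart cells. The part of such other cells in the differences was not tested.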

How the data were processed

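Bisulfite sequencing of polyadenylated RNA gave 1 library per tissue compared, 1 from heart and 1 from liver. The submitters' processing notes name bcl2fastq 2.17, cutadapt, Trimmomatic, HISAT2 2.10, SAMtools and the mm10 build; the read filters, the site calling and any pooling of libraries are steps not given in the sources read. RNA was, per the labels' protocols, selected with either of a pair of kits, and which served which library is not given. The table deposited by the authors holds, per cytosine and tissue, the coverage as a read count from 10 up, the m5C level as a fraction of that coverage, and the authors' true or false call of a site. Uncorrected conversion failure or a read filter would enter the level directly.

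Unconverted reads were level times coverage, rounded. Sites needed 20 reads in both tissues. Each was tested with Fisher's exact test (SciPy 1.17.1, Python 3.11.15), adjusted over all tested sites by Benjamini-Hochberg, and called at an adjusted p under 0.05 with a difference of at least 10 points. Levels have 95% Wilson intervals and differences Newcombe intervals; where no read was unconverted, 3 counts give the upper limit. Intervals, limits and tests cover counting error only and take each read as an independent molecule. Reads copied by PCR are not independent, so intervals can be too narrow and p-values too small. The test was tried on simulated data first. Thinning drew reads at random down to the smaller coverage of each site. It was a single draw, so a call kept or lost after thinning can depend on that draw.

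Gene regions by exon and UTR had been planned; no exon annotation was used here, so distance to RefSeq gene ends (GRCm38.p6, the assembly of mm10) replaced them. Named sites were the 12 highest and 12 most negative differences among called sites with 50 or more reads, the 5 highest mean levels, the 5 most covered sites, up to 4 most covered sites per gene list, all sites of genes with 3 or more, the m5C machinery, genes called in both directions and called sites of the sequence classes. Other names are said to have been chosen after their values were seen; this also holds for Ptpn4, Rpl13a, mt-Nd5 and the second sites of Rpl23, Rplp0, Rpp14, Atp5b and Adra1b. The members, 25 gene lists and cell markers were chosen with earlier results of these data known. Alternatives varied the read minimum, the minimum difference, thinning, centring and the sites kept. Values of a few listed genes are not reported here.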

Additional observations from a re-analysis of the deposited data

How the results depend on the processing

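No paired analysis was possible because each tissue had 1 library and so no replicates. The median difference kept its sign under every alternative for which it was computed: it was 4.98 points with at least 100 reads, 4.50 without closely spaced sites and 4.76 with sites the authors called in another tissue. More sites were higher in heart than in liver in all 10 alternatives. Without a minimum difference the counts were 577 and 70, with 20 points 68 and 10, and after centring on the median 160 and 64. With an odds ratio of at least 2, 517 were higher in heart. With at least 100 reads 15 were higher in liver, and 22 with the adjustment made anew over only the 856 sites the authors called in another tissue, against 20 of these sites with the adjustment over all. The read minimum of 100 and the authors' calls left fewer sites to test (903 and 856); the cause of the other shifts was not tested.

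Of 131 called named sites, 32 were not called after thinning, 86 not at 20 points and 4 not with the odds ratio: both Ppm1m sites, Sec61a1 and mt-Cytb 14920. No called named site changed sign. Of 60 counts for gene lists, gene ends and sequence classes, 16 moved by more than 1.5 times with at least 100 reads, 14 with the authors' calls elsewhere and 7 without close neighbours. At 547 sites not called, the interval of the difference reached 10 points.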
